A study of Mus musculus with 20 samples.

Results

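The genes described here encode regulators of G protein signalling (RGS proteins) and their partners in the mouse cerebellum. They are Rgs8, Rgs4 and Rgs16 of the R4 subfamily, Rgs6, Rgs7 and Rgs11 of the R7 subfamily with their partners Gnb5 and Rgs7bp, Rgs17 of the RZ subfamily, and the G protein gamma subunit gene Gng13. They were chosen by name, with earlier results of these data known, as 10 of the 55401 genes in the count table. Each symbol was matched to a single Ensembl identifier, and all 10 genes passed the filter on low counts in each fit.

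RGS proteins speed up the hydrolysis of GTP by G protein alpha subunits and thereby shorten the signal that a receptor sends into the cell. Proteins of the R7 subfamily are stable only when bound to the atypical beta subunit encoded by Gnb5, and the protein encoded by Rgs7bp anchors these complexes at the plasma membrane. In the cerebellum Rgs8 and Gng13 are known as genes of Purkinje cells (PCs), the output neurons of the cerebellar cortex, which receive metabotropic glutamate and GABA signals through G proteins.

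Spinocerebellar ataxia type 7 (SCA7) arises from an expanded CAG repeat in Atxn7, and the SCA7 knock-in mice used here carry an expanded allele beside a normal mouse allele (140Q/5Q) on the C57BL/6J background. The study asked whether a short hairpin RNA against the CAG repeat, shA4, alters the disease when delivered by the AAV PHP.eB vector, which also carries a GFP reporter and was given by injection behind the eye. A scrambled hairpin, shSCR, served as the control. RNA of the cerebellum of 20 mice was sequenced, with 1 cerebellum in each library. The groups were 3 untreated wild type (WT) mice at 9w, 3 WT mice at 9w given AAV-shA4, 4 untreated WT mice at 25w, 5 SCA7 mice at 25w given AAV-shSCR and 5 SCA7 mice at 25w given AAV-shA4. The labels do not say whether weeks count from birth or from injection. The paper counts its time points from the injection, and its later one does not match the 25w of the labels. The mice called untreated were given saline, so genotype and vector cannot be told apart where SCA7 mice are compared with WT mice. The paper describes the vector as reaching most PCs, and granule cells rarely.

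Between 31465586 and 54570503 reads per library were counted on genes. At 9w the depth of the groups did not overlap, with 36245752 to 39208298 reads in AAV-shA4 mice and 47455917 to 49212593 reads in untreated mice. Levels are given as CPM, counts relative to the library total, on 1 TMM scale over the 20 libraries. Atxn7, the target of the hairpin, had 48.1 ± 2.70 CPM (SD, n = 5) in AAV-shA4 SCA7 mice, 49.5 ± 2.92 CPM (SD, n = 5) in AAV-shSCR SCA7 mice and 48.5 ± 1.96 CPM (SD, n = 4) in WT mice at 25w. Its values were 44.4, 47.5, 49.6, 47.5 and 51.7 CPM with AAV-shA4, 45.6, 53.4, 48.1, 50.5 and 49.98 CPM with AAV-shSCR, and 45.7, 50.2, 49.3 and 48.8 CPM in WT mice. At 9w they were 38.2, 41.3 and 41.0 CPM with AAV-shA4 and 38.7, 43.1 and 37.6 CPM without. The groups of each time point overlapped in Atxn7, and the counts do not separate its alleles. The paper measured the action of the hairpin on its target as protein, which these RNA counts do not show. The log2 difference between AAV-shA4 and AAV-shSCR was −0.04 (95% interval −0.14 to 0.06).

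Per kilobase of the median transcript length, the levels of the 10 genes in WT mice at 25w spanned from Rgs8 at 2279.6 ± 138 CPM per kb (SD, n = 4) to Rgs11 at 3.68 ± 0.815 CPM per kb. Gng13 followed Rgs8 with 292 ± 15.8 CPM per kb, then Gnb5 with 187 ± 7.34 CPM per kb, Rgs7bp with 63.6 ± 1.69 CPM per kb, Rgs7 with 41.7 ± 3.33 CPM per kb and Rgs6 with 25.4 ± 2.89 CPM per kb. These genes did not overlap with their neighbours in this order. Rgs16, Rgs17 and Rgs4 came next, with 9.09 ± 0.728, 8.54 ± 1.68 and 6.84 ± 1.62 CPM per kb, and their values overlapped. The order depends on the length taken for a gene. With the length of all exons merged, a setting chosen after seeing the data, Gng13 was the highest at 201 CPM per kb and Rgs8 followed at 175 CPM per kb, and Rgs11 was still the lowest at 1.16 CPM per kb.

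**Figure D1:**
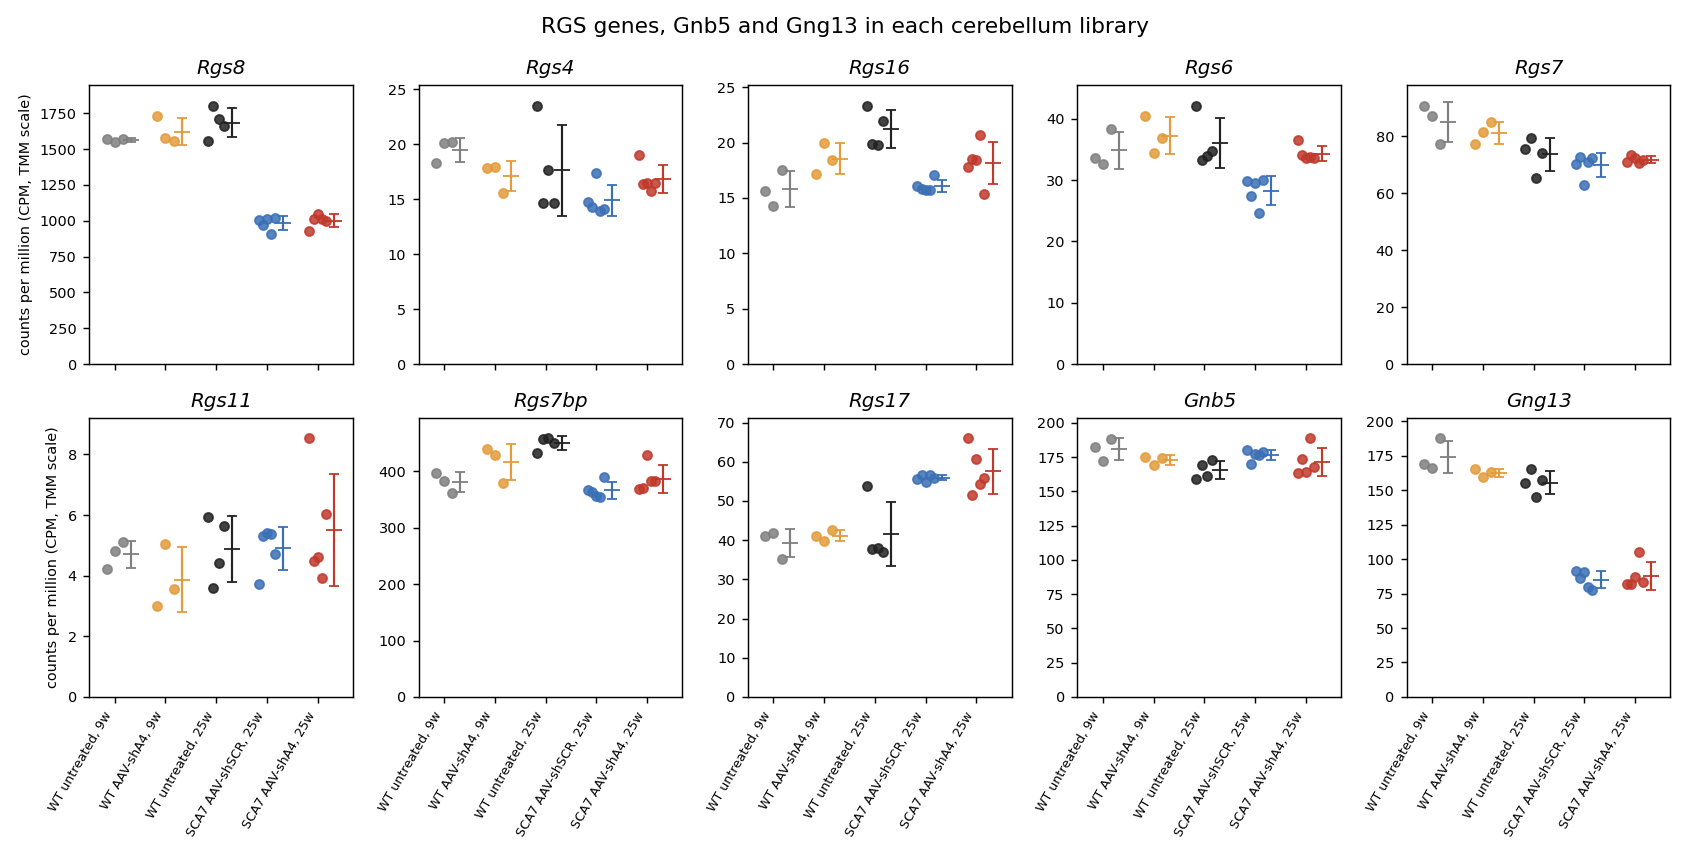
Level of each of the 10 genes in CPM (vertical axes start at 0), with a point for each library of the 5 groups on the horizontal axis and the mean with its SD beside the points. The 10 SCA7 libraries lie between 908 and 1050.0 CPM for Rgs8 and between 77.7 and 105 CPM for Gng13, below each of the 10 WT libraries.

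Rgs8, an R4 protein that acts on Gi/o and Gq alpha subunits, had 1558, 1804, 1713 and 1664 CPM in the 4 WT mice at 25w. In SCA7 mice it had 1006, 971, 1013, 908 and 1023 CPM with AAV-shSCR, and 930.3, 1015, 1050.0, 1014 and 999.9 CPM with AAV-shA4. Each SCA7 library was below each WT library, and the values of the SCA7 groups overlapped. At 9w, Rgs8 had 1569.8, 1547 and 1573 CPM in untreated WT mice and 1734, 1581 and 1553 CPM in WT mice given AAV-shA4. The groups at 9w overlapped.

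Gng13, whose product pairs with beta subunits to form a membrane-bound dimer, had 155, 165, 145 and 157 CPM in the WT mice at 25w. The SCA7 mice had 91.3, 86.3, 90.8, 79.8 and 77.7 CPM with AAV-shSCR, and 82.2, 81.7, 87.0, 105 and 83.2 CPM with AAV-shA4. The SCA7 libraries were again below all WT libraries, with AAV-shA4 replicate 4 the highest among them. At 9w, Gng13 had 168.9, 166.1 and 188 CPM in untreated mice and 165, 159.7 and 163.3 CPM in mice given AAV-shA4, so these groups lay next to each other without overlap. The share of all genes without overlap was not computed at 9w, so this separation has no background to be read against.

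The comparison of AAV-shSCR SCA7 mice with WT mice at 25w covers genotype and vector together, since these WT mice were given saline. Of the 14862 genes tested, 396 (2.66%) fell and 201 (1.35%) rose by an adjusted p below 0.05 together with a fold above 1.3. Of the 10 members, 3 fell (Gng13, Rgs8 and Rgs16) and 1 rose (Rgs17). Their median log2 fold change was −0.27, against 0.00 over all genes tested. The members were chosen with earlier results of these data known, so their counts are no test against all genes. The groups did not overlap in 6 members (Rgs8, Gng13, Rgs16, Rgs17, Rgs6 and Rgs7bp), as in 16.8% of all genes tested. Gng13 fell by 0.87 on the log2 scale (95% interval −1.01 to −0.72, adjusted p = 2.0e-07, edgeR quasi-likelihood) and Rgs8 fell by 0.78 (95% interval −0.87 to −0.68, adjusted p = 1.2e-08). Ranked by p, Rgs8 was number 10 and Gng13 number 51 among all genes tested, and of the 396 genes that fell, 74 did so by more than Gng13 and 94 by more than Rgs8. Fewer cells of a type and less RNA per cell cannot be told apart in RNA of a whole cerebellum.

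The comparison of AAV-shA4 SCA7 mice with the same 4 WT libraries shares these controls, so its values stand beside those above and do not repeat them independently. Of the 14862 genes tested, 338 (2.27%) fell and 175 (1.18%) rose. Of the members, 2 fell (Gng13 and Rgs8) and 1 rose (Rgs17), with a median of −0.07 over the 10 members and 0.01 over all genes. The groups did not overlap in 3 members (Rgs8, Gng13 and Rgs7bp), as in 13.4% of all genes. Gng13 fell by 0.83 on the log2 scale (95% interval −0.97 to −0.68, adjusted p = 4.2e-07 from the same edgeR test), and Rgs8 fell by 0.75 (95% interval −0.85 to −0.65, adjusted p = 1.7e-08). By p, Rgs8 was number 14 and Gng13 number 50.

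Both genes also changed in their weight within their families. Of the summed level per kb of the RGS genes of the lists, Rgs8 held 89.9% ± 1.11 (SD, n = 4) in WT mice at 25w, 84.4% ± 0.690 (SD, n = 5) with AAV-shSCR and 84.3% ± 1.104 (SD, n = 5) with AAV-shA4. At 9w it held 89.1% ± 0.225 (SD, n = 3) in untreated mice and 89.2% ± 0.481 (SD, n = 3) with AAV-shA4. Of the summed level per kb of 12 gamma subunit genes, Gng13 held 45.2% ± 1.52 in WT mice at 25w, 30.4% ± 1.199 with AAV-shSCR and 30.5% ± 2.28 with AAV-shA4. In SCA7 mice Gng13 was thus level with Gng2, which held 30.9% ± 1.14 with AAV-shSCR and 31.0% ± 1.295 with AAV-shA4, against 24.7% ± 0.823 in WT mice. These shares use the median transcript length. They depend on the length taken for each gene, as the order of levels does, and were not computed with merged exons. They were not tested, and a share of 1 gene falls when that gene falls.

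PC markers moved in the same libraries. The list holds 8 genes (Pcp2, Calb1, Car8, Slc1a6, Itpr1, Ppp1r17, Skor2 and Homer3), none of them at 0 in any library, with Itpr1 the most abundant. Their summed level was 8454, 9519, 8838 and 8846 CPM in WT mice at 25w, 6754, 6448, 6656, 6060.0 and 6781 CPM with AAV-shSCR, and 6125, 6687, 7176, 6936 and 6595 CPM with AAV-shA4. All SCA7 libraries lay below all WT libraries of that time. All 8 markers were lower at an adjusted p under 0.05 against WT mice in both SCA7 groups, and 6 of 8 passed the fold limit with AAV-shSCR and 5 of 8 with AAV-shA4. The median log2 fold change of the list was −0.43 for AAV-shSCR mice and −0.40 for AAV-shA4 mice.

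Gng13 and Rgs8, taken because they fell the most of the 10 members, were set against the mean of the 8 PC markers in each library, as log2 of CPM with 0.1 added. This was added after seeing the data and is given as a description. The p of its permutation test are left out, since both genes were picked by their fall. For Gng13 this log2 ratio was −1.51, −1.58, −1.65 and −1.56 in WT mice at 25w. It was −1.99, −1.97, −1.93, −1.99 and −2.17 with AAV-shSCR and −1.95, −2.12, −2.05, −1.82 and −2.04 with AAV-shA4. The ratio was lower in each SCA7 library than in each WT library. It differed from WT by −0.43 in AAV-shSCR mice and by −0.42 in AAV-shA4 mice. The marker mean itself differed by −0.44 and −0.41. The log2 ratio of Rgs8 lay between 1.82 and 1.91 in WT mice, between 1.47 and 1.55 with AAV-shSCR and between 1.44 and 1.55 with AAV-shA4, with differences of −0.34 and −0.34. The SCA7 and WT values did not overlap for either gene. With each marker alone in place of the mean, the AAV-shSCR difference ranged from −0.55 to −0.28 for Gng13 and from −0.45 to −0.18 for Rgs8. How much of each gene's RNA comes from PCs was not tested.

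**Figure D2:**
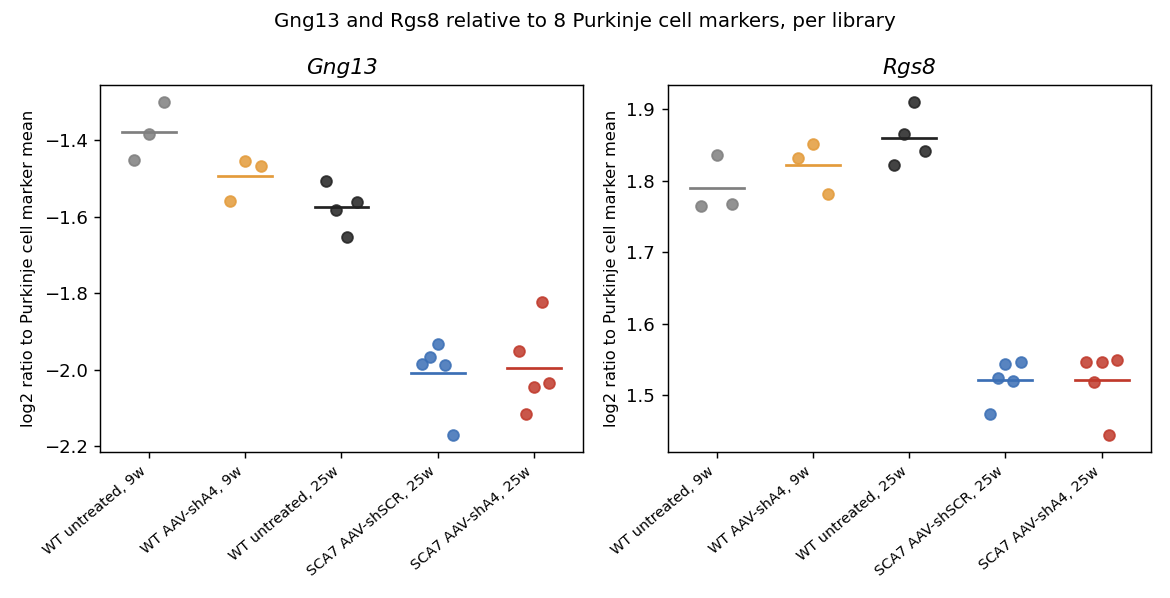
Log2 ratio of Gng13 (left) and Rgs8 (right) to the mean of 8 Purkinje cell markers on the vertical axis, with a point for each library and a line at the mean of each of the 5 groups on the horizontal axis; the vertical axes do not start at 0. The SCA7 libraries lie at or below −1.82 for Gng13 and 1.55 for Rgs8, and the WT libraries at 25w at or above −1.65 and 1.82.

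Markers of other cell types, except oligodendrocytes, are given for the same libraries, and their part in the results was not tested. Of 2 unipolar brush cell markers 1 fell in both SCA7 groups (Eomes, by 1.17 on the log2 scale with AAV-shSCR and by 1.06 with AAV-shA4). Their summed level was 10.6 to 19.0 CPM with AAV-shSCR and 12.2 to 21.0 CPM with AAV-shA4, below the 26.1 to 42.4 CPM of WT mice. Of 5 interneuron and Golgi cell markers 1 fell in both (Grm2), and the sum was 209 to 217 CPM with AAV-shSCR and 192 to 225 CPM with AAV-shA4, below the 231 to 243 CPM of WT mice. All 6 Bergmann glia and astrocyte genes were lower in sign with AAV-shSCR and 5 of 6 with AAV-shA4, with 2 and 3 genes passing the adjusted p alone. Their sum was 2335 to 2511 CPM with AAV-shSCR, below the 2571 to 2753 CPM of WT mice, and overlapped with it at 2278 to 2765 CPM with AAV-shA4. Of 6 granule cell markers 2 were lower by the adjusted p alone in each SCA7 group, with sums of 3932 to 4113 CPM and 3499 to 3968 CPM that overlapped with the 3706 to 4407 CPM of WT mice.

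None of the granule cell (6), Bergmann glia and astrocyte (6), microglia (5), choroid plexus (4), forebrain neuron (4) or clock output (9) genes passed both limits in either comparison, by edgeR. At an unadjusted p under 0.05 these lists held 3, 2, 0, 0, 1 and 1 genes with AAV-shSCR and 5, 3, 0, 0, 0 and 2 genes with AAV-shA4, while 28.7% and 26.6% of all genes tested stood at such a p. The endothelium and pericyte list had 2 of 6 genes called lower with AAV-shSCR (Cldn5 and Kcnj8, both −0.40) and 1 with AAV-shA4 (Cldn5). The immediate early list had 2 of 6 (Egr1 and Nr4a1) and 1 (Nr4a1). Of 3 blood genes, 1 rose with AAV-shSCR (Hbb-bs), from 1.99 ± 0.688 to 6.96 ± 6.22 CPM (SD) with overlapping groups. Outside the blood list none of these genes was at 0 in any library, and 1 of the blood genes was at 0 in AAV-shSCR replicate 5.

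Among the other R4 members, Rgs16 had 23.3, 19.9, 19.8 and 21.9 CPM in WT mice at 25w and 16.1, 15.8, 15.7, 15.7 and 17.1 CPM in AAV-shSCR SCA7 mice. The AAV-shA4 SCA7 mice had 17.8, 18.5, 18.4, 20.7 and 15.3 CPM. AAV-shSCR mice lay below all WT mice, and AAV-shA4 mice overlapped with both groups. Rgs16, a G protein regulator whose RNA follows the circadian clock in parts of the brain, fell by 0.40 on the log2 scale with AAV-shSCR against WT (adjusted p = 0.0011, edgeR). Without WT 25w replicate 1 this was −0.35, under the fold limit, with an adjusted p of 0.0051. With AAV-shA4 against WT the log2 fold change was −0.23 (95% interval −0.38 to −0.08, adjusted p = 0.045), under the fold limit, and without WT 25w replicate 1 it was −0.18 with an adjusted p of 0.14. The summed level of 9 clock output genes was 1250.5 to 1378 CPM in WT mice at 25w, 1191 to 1422 CPM with AAV-shSCR and 1208 to 1433 CPM with AAV-shA4.

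Rgs4, the member of the R4 subfamily best known from forebrain neurons, had 23.5, 14.7, 17.6 and 14.7 CPM in WT mice at 25w, 14.7, 14.3, 17.4, 13.9 and 14.1 CPM with AAV-shSCR, and 19.0, 16.4, 16.5, 15.7 and 16.5 CPM with AAV-shA4. WT replicate 1 was the highest of these libraries and the groups overlapped. Compared with WT mice it differed by −0.25 on the log2 scale in AAV-shSCR mice (95% interval −0.49 to 0.00) and by −0.07 in AAV-shA4 mice (95% interval −0.32 to 0.18), and neither passed the test. Without WT 25w replicate 1 the values were −0.07 and 0.10.

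Of the R7 subfamily, Rgs6 had 42.2, 33.4, 34.0 and 34.7 CPM in WT mice at 25w and 29.9, 27.5, 29.5, 24.6 and 30.0 CPM in SCA7 mice given AAV-shSCR. SCA7 mice given AAV-shA4 had 36.6, 34.1, 33.5, 33.8 and 33.6 CPM. The AAV-shSCR group lay below every library of the other groups at 25w, and the AAV-shA4 and WT groups overlapped. Rgs6 had a log2 fold change of −0.35 with AAV-shSCR against WT (95% interval −0.50 to −0.20, adjusted p = 0.0022, edgeR), which is under the fold limit. It was −0.26 without WT 25w replicate 1, and it passed the fold limit at −0.39 without WT 25w replicate 2. With AAV-shA4 against WT it was −0.07 (95% interval −0.22 to 0.07).

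Rgs7, the R7 gene with the highest level per kb of the 3 studied here, ranged from 65.5 to 79.4 CPM in WT mice at 25w, from 62.9 to 72.9 CPM with AAV-shSCR and from 70.5 to 73.5 CPM with AAV-shA4. The groups overlapped, with log2 fold changes of −0.07 and −0.04 against WT. Gnb5 ranged from 159 to 172.99 CPM in WT mice, from 170.1 to 180.4 CPM with AAV-shSCR and from 163.1 to 189 CPM with AAV-shA4, with log2 fold changes of 0.09 (95% interval 0.01 to 0.18, adjusted p = 0.12) and 0.05. Its share of the summed level per kb of 5 beta subunit genes was 23.2% ± 0.791 in WT mice, 24.2% ± 0.343 with AAV-shSCR and 23.4% ± 1.11 with AAV-shA4. The groups overlapped in this share.

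Rgs11, which works with Rgs7 in retinal ON bipolar cells, had 124 to 384 reads per library at 25w. It ranged from 3.58 to 5.93 CPM in WT mice, from 3.72 to 5.40 CPM with AAV-shSCR and from 3.94 to 8.53 CPM with AAV-shA4, and its interval against WT with AAV-shSCR, −0.43 to 0.43, was the widest of the 10 members. The AAV-shA4 libraries had 8.53, 4.48, 4.62, 3.94 and 6.02 CPM of Rgs11, and their 4 choroid plexus genes, of which Ttr was the most abundant, summed to 3261, 34.2, 506, 322 and 2865 CPM. Replicates 1 and 5 were thus high in both. The WT libraries at 25w had 5.93, 3.58, 4.43 and 5.63 CPM of Rgs11 beside choroid plexus sums of 1137, 1019, 1759 and 3790.3 CPM, and the AAV-shSCR libraries had 3.72, 5.30, 5.40, 5.37 and 4.73 CPM beside 629, 2885, 1902, 1993 and 1719 CPM. How much of the Rgs11 count comes with choroid plexus in the sample was not tested.

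Rgs7bp, the membrane anchor of R7 complexes, had 433, 458, 458 and 451 CPM in WT mice at 25w, 367, 364, 356, 354 and 391 CPM with AAV-shSCR, and 369, 370.1, 429, 383 and 383 CPM with AAV-shA4. Each SCA7 library was below each WT library, by little in AAV-shA4 replicate 3. Against WT mice the log2 difference was −0.30 for AAV-shSCR (95% interval −0.39 to −0.21, adjusted p = 1.2e-04, edgeR) and −0.22 with AAV-shA4 (95% interval −0.31 to −0.13, adjusted p = 0.0020). Both passed the adjusted p and not the fold limit.

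Rgs17, an RZ protein that acts on Gi/o and Gz alpha subunits, was the member that rose. It had 53.9, 37.8, 38.0 and 36.9 CPM in WT mice at 25w, 55.7, 56.5, 54.9, 56.7 and 55.9 CPM with AAV-shSCR, and 65.9, 51.5, 60.7, 54.2 and 55.7 CPM with AAV-shA4. WT replicate 1 was high and lay just under the AAV-shSCR group and within the AAV-shA4 group, whereas the other 3 WT mice were far below. At 9w the values were 41.0, 41.7 and 35.2 CPM in untreated WT mice and 40.9, 39.8 and 42.7 CPM with AAV-shA4. Against WT at 25w Rgs17 rose by 0.42 on the log2 scale with AAV-shSCR (95% interval 0.22 to 0.62, adjusted p = 0.0056, edgeR) and by 0.46 with AAV-shA4 (95% interval 0.26 to 0.66, adjusted p = 0.0031). Without WT 25w replicate 1 these were 0.57 (adjusted p = 6.4e-06) and 0.62 (adjusted p = 3.4e-06), and the groups then did not overlap in either comparison. Without WT 25w replicate 2 or 4 the AAV-shSCR value was 0.38 or 0.37, just under the fold limit.

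WT 25w replicate 1 stood apart from the rest of its group in 484 genes (3.26% of those tested), the most of the 14 libraries at 25w, of which the others stood apart in 0.72% to 2.11%. Its granule cell markers summed to 3706 CPM, against 4230.2 to 4407 CPM in the other WT mice of that time. The values of Gng13 and Rgs8 without it were −0.87 and −0.81 with AAV-shSCR against WT, and −0.83 and −0.79 with AAV-shA4.

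**Figure D3:**
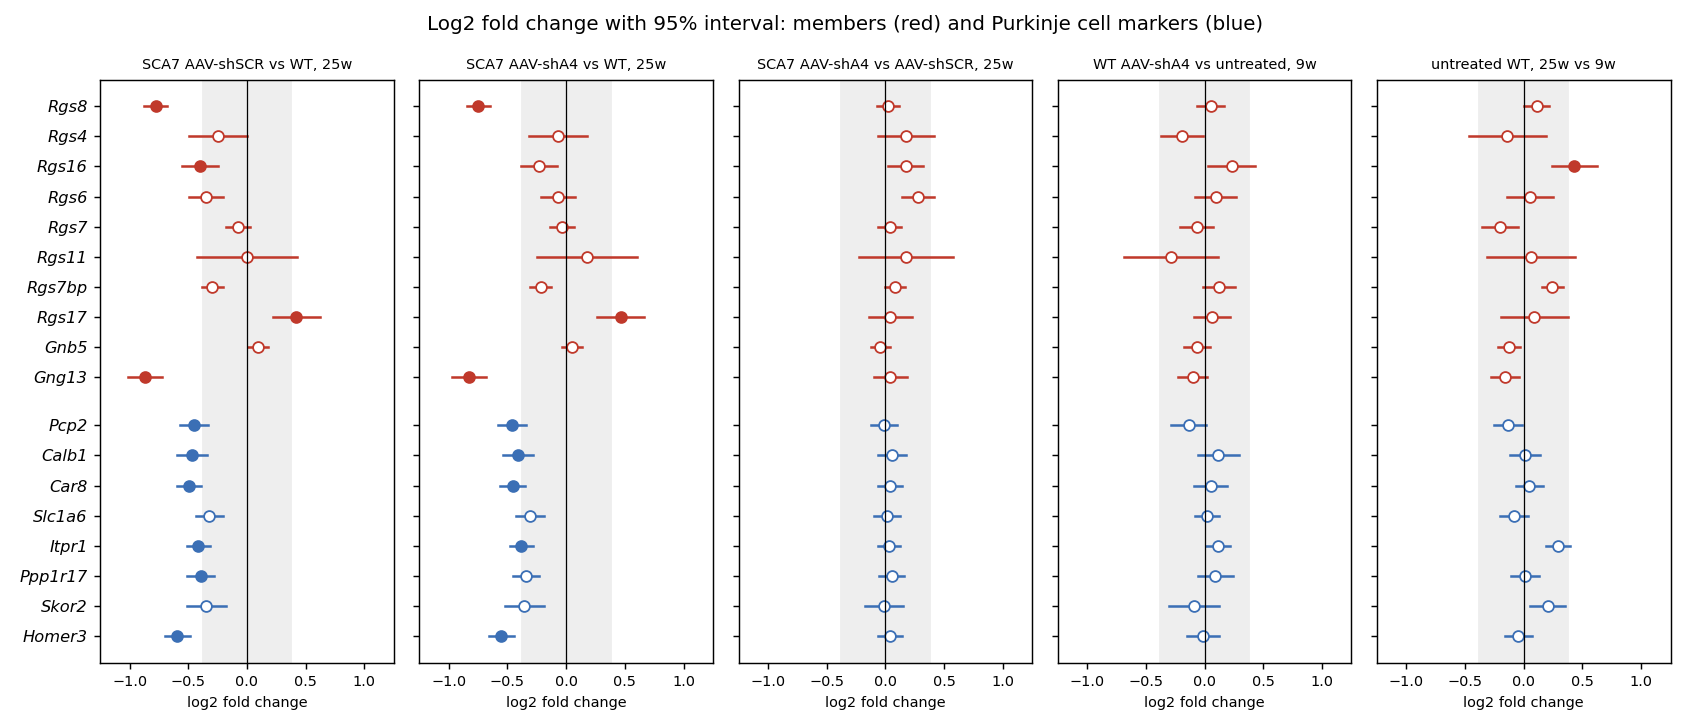
Log2 fold change (horizontal axis) with its 95% interval for the 10 members in red and 8 Purkinje cell markers in blue (vertical axis), in 5 comparisons. Filled points passed the adjusted p and the fold limit, and the grey band marks fold changes within that limit. Gng13 and Rgs8 lie left of all the blue points in both comparisons of SCA7 with WT mice, and no member is filled in the comparison of the SCA7 groups with each other.

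Whether the hairpin changed these genes in SCA7 mice was asked by comparing AAV-shA4 with AAV-shSCR. No gene passed the adjusted p with edgeR, so 0 of the 14862 genes (0%) and 0 of the 10 members were called. With an unadjusted p below 0.05 stood 1222 genes (8.22%) and 2 members (Rgs6 and Rgs16), and DESeq2 called 5 genes and 0 members. The median log2 fold change was 0.06 over the members and 0.00 over all genes. The log2 fold change of Gng13 was 0.04 (95% interval −0.10 to 0.18) and that of Rgs8 was 0.03 (95% interval −0.07 to 0.12). For Gng13 it turned to −0.03 without AAV-shA4 replicate 4. Relative to PC markers the differences were 0.01 for Gng13 and 0.00 for Rgs8.

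The groups did not overlap in 1 member, Rgs6, as in 1.49% of all genes tested. It was higher with AAV-shA4, at 34.3 ± 1.28 CPM compared with 28.3 ± 2.32 CPM (SD, 5 mice in each). Its log2 fold change was 0.28 (95% interval 0.14 to 0.42, adjusted p = 0.33 with edgeR). With DESeq2 the adjusted p was 0.037 and the fold change was under the limit, and over all alternatives the adjusted p ranged from 0.037 to 0.93. The other member with an unadjusted p under 0.05 was Rgs16, with a log2 fold change of 0.17 (95% interval 0.02 to 0.32, adjusted p = 0.56, edgeR) and overlapping groups. For the other 8 members the log2 fold change lay between −0.04 for Gnb5 and 0.18 for Rgs11, and the Rgs11 value turned to −0.04 without AAV-shA4 replicate 1.

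At 9w, WT mice given AAV-shA4 were compared with untreated WT mice, which asks for effects of the vector and hairpin without the disease allele. Of 14733 genes tested 8 were called (0.0543%), and 0 of the 10 members with edgeR. With an unadjusted p below 0.05 stood 1639 genes and 2 members (Rgs16 and Rgs4), and DESeq2 called 53 genes and 0 members. Rgs16 had 17.2, 19.99 and 18.5 CPM with AAV-shA4 and 15.6, 14.3 and 17.5 CPM without, a log2 fold change of 0.23 (95% interval 0.03 to 0.43, adjusted p = 0.39, edgeR). Rgs4 had 17.8, 18.0 and 15.6 CPM with AAV-shA4 and 18.3, 20.1 and 20.2 CPM without, a log2 fold change of −0.19 (95% interval −0.37 to −0.01, adjusted p = 0.42, edgeR). The groups overlapped in Rgs16 and lay next to each other in Rgs4, and the share of all genes without overlap was not computed here. For Rgs8 the log2 fold change was 0.05 (95% interval −0.06 to 0.17) and for Gng13 it was −0.10 (95% interval −0.22 to 0.02). The summed level of the 9 clock output genes was 1404 to 1469 CPM with AAV-shA4 and 1154 to 1206 CPM without, with Tef the most abundant of them in every library. Of the lists, 1 of 9 clock output genes rose (Per2, by 0.89 on the log2 scale), while all 9 were higher in sign, 8 had an unadjusted p below 0.05, 2 passed the adjusted p and their median was 0.30. Also 1 of 7 genes of the RZ, R12 and other subfamilies rose (Rgs22, by 1.79). The part of this difference in Rgs16 was not tested.

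Untreated WT mice at 25w were set against untreated WT mice at 9w to give the levels over time, where age and cohort cannot be told apart. Of 14875 genes tested 764 (5.14%) were called, and 1 of the 10 members, Rgs16. It was higher at 25w than in each untreated library at 9w, with means of 21.3 ± 1.70 (SD, n = 4) and 15.8 ± 1.64 CPM (SD, n = 3), and rose by 0.43 on the log2 scale (95% interval 0.24 to 0.62, adjusted p = 0.0067, edgeR). The share of all genes without overlap was not computed for this comparison. The call was lost without WT 9w replicate 2 of the untreated mice, at a log2 fold change of 0.36. Clock output genes summed to 1250.5 to 1378 CPM at 25w, above 1154 to 1206 CPM at 9w, and 3 of the 9 rose (Per2, Per1 and Hlf). In sign 6 of the 9 were higher and 3 lower, and 6 passed the adjusted p upward and 2 downward. Other lists moved as well. Of 6 immediate early genes 3 rose (Npas4, Nr4a1 and Fos), of 3 blood genes 2 fell (Hba-a1 and Hbb-bs), and of 2 unipolar brush cell markers 1 rose (Eomes), with sums of 26.1 to 42.4 CPM at 25w and 18.3 to 21.8 CPM at 9w. The WT mice given AAV-shA4 at 9w had 27.6 to 52.5 CPM in this list, above the untreated mice of that time. All 5 microglia genes were higher in sign at 25w, with a median of 0.28. Of these, 3 passed the adjusted p and 0 were called. Their sum was 143 to 165 CPM at 25w, above the 127 to 135 CPM of untreated mice at 9w.

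Rgs7bp was also higher at 25w, with a log2 fold change of 0.24 (adjusted p = 0.0031, edgeR) under the fold limit. Gng13 was lower in each library at 25w than in each untreated library at 9w, at −0.16 (95% interval −0.28 to −0.04, adjusted p = 0.052). As for Rgs16, the share of all genes separated in this way was not computed. Rgs7 had −0.21 (95% interval −0.36 to −0.05, adjusted p = 0.057) and Gnb5 −0.12 (95% interval −0.22 to −0.03, adjusted p = 0.055), both with overlapping groups, and Rgs8 had 0.11 (95% interval 0.00 to 0.22, adjusted p = 0.13). With an unadjusted p below 0.05 were 6 of the 10 members and 36.9% of all genes tested. Relative to PC markers the Gng13 difference was −0.20 and that of Rgs8 was 0.07. From Itpr1 to Pcp2 as the single marker, it ranged from −0.45 to −0.03 for Gng13 and from −0.18 to 0.24 for Rgs8, whose direction thus depends on the marker. Without WT 25w replicate 1, Rgs8 (0.14, adjusted p = 0.030) and Rgs4 (−0.32, adjusted p = 0.024) passed the adjusted p as well, both under the fold limit.

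The other genes of the pathway were counted in lists. In SCA7 mice given AAV-shSCR against WT, 2 of 6 tested R4 genes fell (Rgs8 and Rgs16), 0 of 8 R7 genes and partners were called, and 1 of 7 genes of the RZ, R12 and other subfamilies rose (Rgs17). An unadjusted p under 0.05 was found for 5 of the 8 R7 genes and partners with AAV-shSCR and for 2 of 8 with AAV-shA4, where 28.7% and 26.6% of all genes tested had such a p. Their medians were −0.20, 0.01 and 0.03. With AAV-shA4 against WT the counts were 1 of 6, 0 of 8 and 1 of 7. Of 5 beta subunit genes 0 were called in either comparison by edgeR, and 1 had an unadjusted p under 0.05 in each. Of 10 tested gamma subunit genes, 1 fell in each comparison, Gng13, while the median of that list was 0.12 for AAV-shSCR mice and 0.13 for AAV-shA4 mice. Of 12 tested alpha subunit genes 0 were called in either comparison by edgeR, and 6 had an unadjusted p under 0.05 in each, to be read against the same shares of all genes. The other tool's counts for these lists were not computed.

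Receptors and effectors held further called genes. Of 12 receptors that signal through Gq or Gi/o, 4 fell and 0 rose in both comparisons with WT, with a median of −0.34 for AAV-shSCR and −0.20 for AAV-shA4. They were Grm4, the glutamate receptor of parallel fibre terminals, at −0.76 and −0.82, Grm2, a glutamate receptor of Golgi cells, at −0.72 and −0.51, Htr1b, a serotonin receptor, at −0.56 and −0.39, and Gabbr2, a subunit of the GABA-B receptor, at −0.47 and −0.50. Of 12 effectors, 2 fell and 0 rose in both comparisons, namely Plcb3, a phospholipase C of PCs, at −0.84 and −0.83, and the IP3 receptor gene Itpr1 at −0.42 and −0.38. Itpr1 is also on the list of PC markers, and Grm2 on that of interneurons and Golgi cells. In the comparison of AAV-shA4 with AAV-shSCR none of the pathway lists held a called gene by edgeR. An unadjusted p under 0.05 was found for 2 of 12 receptors and 1 of 12 effectors, where 8.22% of all genes tested had such a p. The R4 list, the R7 list and the list of RZ, R12 and other subfamilies held 1 such gene each. The beta, gamma and alpha subunit lists held 0. Between untreated WT mice at 25w and 9w, 1 of 8 R7 genes and partners rose (Rgs9, by 0.73 on the log2 scale), as did 1 of 7 genes of the RZ, R12 and other subfamilies (Rgs22, 1.22) and 2 of 12 effectors (Plcb2, 0.61, and Kcnj6, 0.45). Of 10 gamma subunit genes 2 fell (Gng3, −0.38, and Gng8, −0.70), and of 12 receptors 1 fell (Grm4, −0.61).

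Over the 14 libraries at 25w and among 14861 other genes, the genes whose log2 CPM followed Gng13 most closely were Cep72, Dagla, Aldoc, Bcar1 and Plcb3 (Pearson r 0.98 to 0.99). For Rgs8 they were Atp2b2, Icmt, Slc20a1, Grid2ip and Washc2 (r 0.99 to 1.00). Much of such an r comes from the difference between SCA7 and WT libraries. After subtraction of the group means r was 0.68 to 0.83 for the genes nearest to Gng13 and 0.83 to 0.92 for those nearest to Rgs8. These genes were picked by r over the same libraries, so a high r within groups follows in part from that choice. Within groups, over the 20 libraries and as a description without a test, Gng13 and Rgs8 themselves had an r of 0.29. The pair of members with the highest such r was Gnb5 and Gng13 at 0.66, and Rgs8 and Rgs11 had the lowest at −0.72. Without WT 25w replicate 1 the lowest was Rgs4 with Rgs7 at −0.77 (−0.40 with it), Rgs8 and Rgs11 had −0.69, and Rgs4 with Rgs17 went from 0.66 to 0.15. Libraries share their scaling, and depth and dissection differ between them.

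In the mouse build GRCm38, 4 members lie on chromosome 1 (Rgs8, Rgs16, Rgs4 and Rgs7) and 2 on chromosome 17 (Gng13 and Rgs11). Rgs8 (ENSMUSG00000042671, chr1:153653025-153700323, plus strand) and Rgs16 (ENSMUSG00000026475, chr1:153740349-153745468, plus strand) are neighbours with 40025 bases between them. Gng13 (ENSMUSG00000025739, chr17:25717171-25719406, plus strand) shares 399 exonic bases with Chtf18 on the opposite strand. The kit kept strand information, but how HTSeq treated strands is unstated, so reads of Chtf18 in the Gng13 count cannot be told apart. Exonic bases are also shared with genes on the opposite strand by Rgs8 (70 bases), Rgs6 (77), Rgs11 (138), Rgs16 (236) and Gnb5 (248).

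Promoter windows of 300 bases around annotated starts were taken from RefSeq (build GRCm38.p6) for the members. They were searched on both strands for AGGTCA (or its reverse complement TGACCT), the letters known as a half-site of nuclear receptors such as the retinoic acid receptor-related orphan receptors of PCs, a choice made after the sequences were seen. Windows were found for 9 of the 10 members (not Rgs11), and 2 of their 12 windows hold the motif, for Rgs8 and Gnb5. Of all 32851 windows of this length, 5340 (16.3%) hold it, so the members' share is near that background. The window of Rgs8 with a match (chr1:153665423-153665722, plus strand) and the upstream window of Gng13 (chr17:25716922-25717221, plus strand), which has none, are shown because these genes fell together, with the motif in capitals. The other windows of Rgs8 hold no match, and neither does the other window of Gng13. A match is no evidence of a site, and its absence says only that these letters are not in the window.
Rgs8: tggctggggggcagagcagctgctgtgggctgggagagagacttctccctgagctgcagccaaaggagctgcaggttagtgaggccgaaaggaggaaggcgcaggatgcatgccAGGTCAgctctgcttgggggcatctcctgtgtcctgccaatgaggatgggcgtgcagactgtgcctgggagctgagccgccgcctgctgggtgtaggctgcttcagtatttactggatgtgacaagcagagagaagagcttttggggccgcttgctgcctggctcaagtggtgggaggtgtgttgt
Gng13: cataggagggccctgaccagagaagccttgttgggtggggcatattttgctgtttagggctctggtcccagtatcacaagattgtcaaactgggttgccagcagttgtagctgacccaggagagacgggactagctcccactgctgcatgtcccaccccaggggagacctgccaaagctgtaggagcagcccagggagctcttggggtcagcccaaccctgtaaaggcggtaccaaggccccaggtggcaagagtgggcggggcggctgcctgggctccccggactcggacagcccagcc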

How the data were processed

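RNA-seq was available for 20 cerebella of C57BL/6J mice in 5 groups, assigned from the labels of the samples. The raw counts per gene deposited by the authors were used without remapping. According to the submitters' processing notes, reads were handled with cutadapt 1.10, Bowtie2 2.2.8 and STAR 2.5.3a on build mm10, and counted with HTSeq 0.6.1p1. Libraries were prepared with a stranded kit for mRNA. Gene types, lengths and positions came from GENCODE release M21, which holds 55141 of the 55401 genes and lacks 260.

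Counts of the 21897 protein-coding genes went into edgeR 4.0.16 under R 4.3.3 (TMM, filterByExpr at minimum count 10 and total 15, quasi-likelihood test without robust estimation), with limma 3.58.1 installed for it. The 14 libraries of 25w, the 6 libraries of 9w and the 7 untreated WT libraries were fitted separately, with the Benjamini-Hochberg adjustment taken over all genes tested. Calls needed an adjusted p below 0.05 with a fold above 1.3, up or down, where 1.3 is the limit that the authors used. Log2 values of single libraries have 0.1 CPM added, intervals are 95%, and the methods were tested on simulated data.

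Alternatives were RLE normalization, DESeq2 1.42.0, no filter beyond 1 read, all genes of the table, robust estimation, no fold limit, all 20 libraries in 1 fit, the replicate number as a block, and leaving out each library. The merged exon length, the ratio to PC markers and its single markers were added after seeing the data. The ratio was computed for Gng13 and Rgs8 only, chosen because they fell the most, so its exact permutation p are not given. The members and lists were chosen with earlier results of these data known. The lists are RGS genes of the R4, R7 (with partners) and RZ, R12 and other subfamilies, beta, gamma and alpha subunits, receptors, effectors, and markers of Purkinje cells, granule cells, unipolar brush cells, interneurons and Golgi cells, Bergmann glia and astrocytes, oligodendrocytes, microglia, endothelium and pericytes, choroid plexus, forebrain neurons, blood, clock output and immediate early genes. The result of the oligodendrocyte list is left out of the report.

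Named genes are the members, at most 4 called genes of each other list in a comparison by smallest p, paralogs of a member for their level, and the 5 genes most similar to Gng13 and to Rgs8 by Pearson r over the libraries of 25w. Atxn7 was named as the target. Depth was 31465586 to 54570503 reads on genes per library. Replicates of a group spread more widely than counting alone gives (chi-squared over degrees of freedom from 4.87 to 26.1 in 32 pairs). The biological coefficient of variation was 0.0790 at 25w, 0.0729 at 9w and 0.0784 in the untreated WT libraries.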

Additional observations from a re-analysis of the deposited data

Results flagged for a closer look

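Of 30 sets of 4 or 5 libraries of a member at 25w, 8 held a library far from the rest by Dixon's ratio, where chance flags about 1 in 20 groups, or 1.5 of 30. WT replicate 1 was high in Rgs17, with 53.9 CPM against 36.9 to 38.0 CPM in the other WT mice, and in Rgs6, with 42.2 CPM against 33.4 to 34.7 CPM. AAV-shA4 replicate 1 was high in Rgs4, with 19.0 CPM against 15.7 to 16.5 CPM, and in Rgs6, with 36.6 CPM against 33.5 to 34.1 CPM. AAV-shSCR replicate 3 was high in Rgs4, with 17.4 CPM against 13.9 to 14.7 CPM, and low in Rgs7, with 62.9 CPM against 70.3 to 72.9 CPM. AAV-shA4 replicate 3 was high in Rgs7bp, with 429 CPM against 369 to 383 CPM. AAV-shA4 replicate 4 was high in Gng13, with 105 CPM against 81.7 to 87.0 CPM. Why these libraries differ was not tested.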

How the results depend on the processing

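Over 7 alternatives and each library left out in turn, 748 of 760 log2 fold changes of the members kept their call and their sign or changed sign by less than a standard error, 4 lost a call, 1 gained a call, 7 uncalled values changed sign by more, and 0 called values reversed. Gng13 and Rgs8 were called in each of 16 alternatives in both comparisons of SCA7 with WT mice, with ranges of −0.90 to −0.84 and −0.81 to −0.74 for AAV-shSCR and of −0.90 to −0.80 and −0.79 to −0.71 for AAV-shA4. The number of members called was 4 for AAV-shSCR against WT (3 to 4 with a library left out, 4 to 6 otherwise) and 3 for AAV-shA4 against WT (3 with a library left out). With the adjusted p alone and no fold limit, by construction a wider rule, it was 6 and 5 for these, and 2 in place of 1 for WT mice at 25w against 9w. The last count was 0 to 1 with a library left out. Between the SCA7 groups and at 9w it was 0 throughout, while the number of all genes called at 9w, 8, ranged from 1 to 53. With the adjusted p alone 2309, 2018 and 3419 genes were called in place of 597, 513 and 764. The Rgs8 difference between WT mice at 25w and 9w, 0.07 relative to the mean of 8 PC markers, reversed to −0.18 relative to Itpr1 alone and to −0.09 relative to Skor2 alone, and the cause was not tested.

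The labels do not say whether replicate numbers pair the mice. The correlation of deviations over 16 pairs of same-numbered libraries ranged from −0.23 to 0.49 and exceeded 0.1 in 4. Libraries with different numbers were not compared in this way, so these values cannot decide whether mice were paired. With the replicate number as a block the members called were 4, 3, 0, 0 and 1 in the 5 comparisons, as without it. The genes called went from 597 to 563, 513 to 488, 0 to 0, 8 to 37 and 764 to 525.

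Each group holds 3 to 5 mice, and the SCA7 groups share their 4 WT controls. Genotype and vector, and time and cohort, cannot be told apart. Rgs11 had the fewest reads, 110 to 384 per library.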
